A study of Mus musculus with 4 samples.

Results

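Lysozymes and other secreted antimicrobial proteins were examined in the RNA of large peritoneal macrophages (LPMs), which live in the peritoneal cavity as its resident macrophage population. The set holds 9 genes, of which 8 are in the table of 18364 genes: the lysozymes *Lyz1* and *Lyz2*, the protease inhibitor *Slpi*, the ribonucleases *Rnase4* and *Ang*, the small secreted protein *Wfdc17*, the lipocalin *Lcn2* and the mucin-like gene *Mucl1*. The RNA of *Camp*, which encodes the cathelicidin antimicrobial peptide, was not analysed here, only its promoter window. Members were matched by symbol. They were chosen by their normalised read values in WT and Rxra-KO in these same libraries, so their differences are given as a description, without a p-value.

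The samples were LPMs of 8-week-old C57BL/6 mice that had been sorted in a pair of successive rounds. The study defines LPMs as cells high in F4/80 and low in MHC class II. There were 2 libraries labelled WT and 2 labelled Rxra-KO. Per the study, both groups carried the floxed *Rxra* allele (Rxra fl/fl), and the Rxra-KO mice also carried LysM Cre. LysM is an older name of *Lyz2*, and this Cre is expressed from the *Lyz2* locus, which the insertion disrupts, so *Lyz2* itself differs in design between the groups. How many copies of the Cre allele the mice carried, and whether mice were pooled, is not given in the sources used here. The labels do not say whether the replicates came from separate mice, so the spread between them may be technical.

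Depth was 652542 and 947372 reads in WT and 629030 and 1047021 reads in Rxra-KO. The floor was set at 3 reads in a library, worth a normalised read signal of 2.98 to 4.54, and a group is said to be at the floor where neither of its libraries exceeds it. *Rxra* had reads of 20 and 28 (WT) against 33 and 77 (libraries labelled Rxra-KO), with a log2 fold change of 0.99 ± 0.36 (SE) and an adjusted *p* of 0.183 by limma. The targeted gene was thus not lower under the label Rxra-KO, but a value for the whole gene does not isolate the floxed exons, and the difference was not called. The study reports an efficient reduction of *Rxra* and *Rxrb* in LPMs of mice in which LysM Cre targeted both genes. It measured this by qPCR with primers on either side of the deleted exons. Those mice are not the source of these libraries. All directions are between libraries as labelled. The genes of a fixed LPM marker list, *Adgre1*, *Csf1r*, *Itgam*, *Icam2*, *Gata6* and *Timd4*, all had reads in every library. *Itgam* (CD11b) and *Csf1r* (CD115) are not specific to LPMs, since the study gates small peritoneal macrophages on them too. The summed signal of the list was 6986 and 7658 (WT) against 3860 and 4631 (Rxra-KO). In WT most of it came from *Itgam*, at 3624 and 4534 (WT) against 1406 and 2102 (Rxra-KO). By limma 4 of the 6 were called lower in Rxra-KO, among them *Gata6*, the transcription factor of LPM identity, with reads of 35 and 65 against 3 and 24, and *Icam2*, which encodes CD102, with 721 and 1199 against 309 and 542. *Timd4* was not called, at signals of 143 and 148 (WT) against 130 and 53.1 (Rxra-KO). *Csf1r* was not called either, and its mean signal was 1212 ± 213 (WT) and 1545 ± 130 (Rxra-KO; SD, n = 2). For both genes the groups did not overlap, as for 38.1% of all genes, with *Timd4* lower and *Csf1r* higher in Rxra-KO. In bulk RNA alone, fewer cells of a type and less RNA per cell cannot be told apart. The study describes the sorted LPMs as almost pure. By flow cytometry it reports lower GATA-6 and CD102 protein in LPMs of the same genotype.

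Lysozymes cut the peptidoglycan wall of bacteria, and *Lyz2* is the main lysozyme gene of mouse macrophages, whereas *Lyz1* is best known from the Paneth cells of the intestine. SLPI and WFDC17 are secreted proteins with whey acidic protein (WAP) domains. SLPI blocks serine proteases such as neutrophil elastase. RNase 4 and angiogenin belong to the ribonuclease A family, several members of which kill microbes. Lipocalin 2 binds bacterial siderophores and so withholds iron, and cathelicidin is cut into a peptide that breaks bacterial membranes. Lipocalin 2 and cathelicidin are stored in neutrophil granules.

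*Lyz1* and *Lyz2* lie side by side on chromosome 10 and are near copies, so the sequences are shown first to make clear how far reads of the pair can be told apart. Their coding sequences, taken from GENCODE M21 transcripts, are both 447 bases long and differ at 22 bases, an identity of 95.1%. The 120-base stretch with the most differences, coding bases 37 to 156, holds 14 of them, which are in capitals.

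Lyz1: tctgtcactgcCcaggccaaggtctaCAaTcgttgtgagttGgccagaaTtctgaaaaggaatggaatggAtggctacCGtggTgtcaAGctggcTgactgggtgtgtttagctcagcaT

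Lyz2: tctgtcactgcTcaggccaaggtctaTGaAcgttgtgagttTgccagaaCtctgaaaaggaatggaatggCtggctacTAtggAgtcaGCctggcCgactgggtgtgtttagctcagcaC

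Elsewhere the coding sequences are identical over up to 118 bases in a row. Of all 31-base words in the *Lyz1* transcript, 34.2% are also in *Lyz2*, and 32.8% of those in *Lyz2* are also in *Lyz1*. A read that lies wholly within such stretches names neither gene, and how the counting assigned these reads was not tested. For comparison, *Slpi*, *Wfdc17* and *Lcn2* share no 31-base word with any other gene of the annotation. *Mucl1* shares 2.56% of its words, all with *Mucl2*, and *Rnase4* shares 10.0% of its own, each of them with *Ang*.

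*Lyz2* was the most abundant member in every library and the fourth most abundant gene by its mean in WT. It had reads of 9420 and 10684 (WT) against 4241 and 6272 (Rxra-KO), or 1.44% and 1.13% of the library in WT and 0.674% and 0.599% in Rxra-KO. Its normalised signal was 14263 and 11591 (WT) against 6386 and 6230 (Rxra-KO). Both Rxra-KO libraries were below both WT libraries and close to each other. Mean signals were 12927 ± 1890 (WT) and 6308 ± 111 (Rxra-KO; SD, n = 2), 2.05-fold lower in Rxra-KO, with a log2 fold change of -1.03 (standard error 0.24). Because Cre sits in this locus, loss of *Lyz2* reads through the inserted allele and any other change of *Lyz2* cannot be told apart.

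*Lyz1* had reads of 1295 and 1616 (WT) against 2726 and 4219 (Rxra-KO), with normalised signals of 1961 and 1754 against 4105 and 4191. Both Rxra-KO libraries were above both WT libraries, the opposite side from *Lyz2*. Mean signals were 1858 ± 147 (WT) and 4148 ± 60.5 (Rxra-KO; SD, n = 2), 2.23-fold higher, with a log2 fold change of 1.16 (standard error 0.22). *Lyz1* moved from place 45 in the order of mean signals in WT to place 14 in Rxra-KO, while *Lyz2* went from 4 to 8. The lysozyme genes were the most abundant members in both groups.

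The pair was also read as a share, which depends on how reads were split between the copies, and as a sum, which does not. *Lyz1* took 12.1% of the summed reads in WT replicate 1 (95% Wilson interval 11.5% to 12.7%) and 13.1% in WT replicate 2 (12.6% to 13.7%). In Rxra-KO it took 39.1% (38.0% to 40.3%) and 40.2% (39.3% to 41.2%). The shares of the replicates lay near each other and the groups were far apart. These intervals cover counting error only, not the assignment of reads to either copy. There were 6.94 ± 0.469 *Lyz2* reads for each *Lyz1* read (WT) and 1.52 ± 0.0489 (Rxra-KO; SD, n = 2). The summed signal was 16223 and 13343 (WT) against 10490 and 10419 (Rxra-KO), a log2 difference of means of -0.50. As a single feature in the limma fit the sum was not called, with a log2 fold change of -0.49, so the summed signal moved less than either gene.

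**Figure D1:**
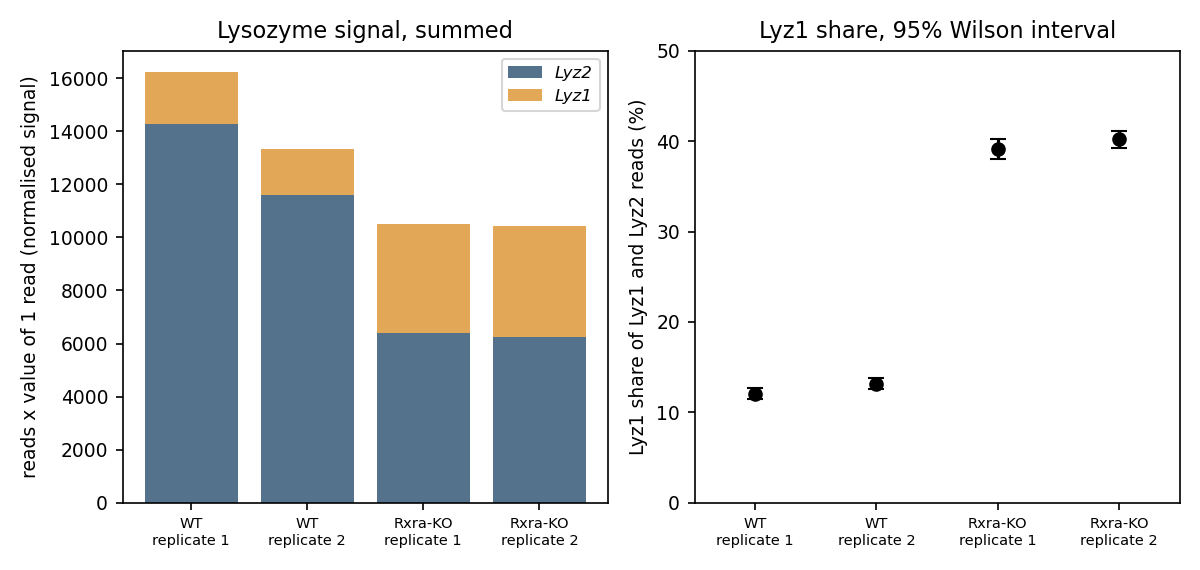
Left, bars from 0 give the normalised signal of *Lyz2* and *Lyz1* stacked for each of the 4 libraries. Right, points give the share of *Lyz1* among the reads of both genes in percent, with the 95% Wilson interval; the share was 12.1% and 13.1% (WT) against 39.1% and 40.2% (Rxra-KO).

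The promoters of the pair are shown because the 2 genes, which lie side by side, stood on opposite sides between the groups. The 250 bases before the RefSeq start (GRCm38.p6, minus strand) are at chr10:117292869-117293118 for *Lyz1* and at chr10:117282273-117282522 for *Lyz2*, and are 80.6% identical where aligned. Capitals mark AGGTCA, the half-site of nuclear receptors such as RXR partners, and AGGAAG, a core bound by ETS factors such as PU.1, on either strand (CTTCCT is AGGAAG on the other strand).

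Lyz1: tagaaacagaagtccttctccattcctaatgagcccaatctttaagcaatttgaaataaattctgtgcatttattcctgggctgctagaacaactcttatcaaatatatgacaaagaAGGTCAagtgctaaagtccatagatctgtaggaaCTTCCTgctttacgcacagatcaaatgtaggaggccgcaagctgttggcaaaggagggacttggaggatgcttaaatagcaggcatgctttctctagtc

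Lyz2: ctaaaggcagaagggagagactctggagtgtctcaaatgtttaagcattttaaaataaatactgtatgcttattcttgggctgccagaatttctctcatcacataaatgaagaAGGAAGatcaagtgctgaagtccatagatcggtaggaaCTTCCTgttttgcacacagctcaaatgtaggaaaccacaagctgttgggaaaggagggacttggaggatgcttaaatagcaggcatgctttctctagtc

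AGGTCA stands once in the *Lyz1* window, 133 bases before the start, and in no window of the other members with an entry. It is in 14.0% of 32817 promoter windows of the same length. AGGAAG stands 99 bases before the start in both lysozyme windows and once more in *Lyz2*, 137 bases before it, and is in 29.5% of all windows. It is also in both *Rnase4* windows and in those of *Ang*, *Wfdc17*, *Lcn2* and *Camp*, but not in that of *Slpi*. The repeats DR1 and DR5, in which AGGTCA follows itself in the same orientation after 1 or 5 free bases and which therefore overlap the half-site, were in no window of the members and in 0.0335% and 0.00914% of all windows. TTGCNNAA, a C/EBP motif, was in the *Lyz1*, *Slpi*, *Lcn2* and second *Rnase4* windows and in 9.57% of all. TGANTCA, an AP-1 motif, and TATAAA were in none of the members and in 6.75% and 12.4% of all. These matches are letters in a window, not binding sites.

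*Rnase4* stood furthest apart between the groups among members with reads in both. It had reads of 14 and 16 (WT) against 768 and 493 (Rxra-KO), with normalised signals of 22.0 and 17.9 against 1157 and 490. Both Rxra-KO libraries were far above WT but also differed from each other, with 2.36-fold more signal in replicate 1 (exact 95% counting interval 2.11 to 2.65). Mean signals were 19.9 ± 2.87 (WT) and 824 ± 472 (Rxra-KO; SD, n = 2), 41.3-fold higher, with a log2 fold change of 5.18 (standard error 0.28). Its place in the order of mean signals was 6875 in WT and 133 in Rxra-KO.

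*Ang*, which encodes angiogenin, has the same promoter window in RefSeq as the first of the 2 starts given for *Rnase4*. The 250 bases before that start, on the plus strand at chr14:51090827-51091076 (GRCm38.p6), are printed because they are the listed promoter of *Ang* and 1 of the 2 listed for *Rnase4*. Capitals again mark AGGTCA and AGGAAG on either strand.

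Rnase4 and Ang: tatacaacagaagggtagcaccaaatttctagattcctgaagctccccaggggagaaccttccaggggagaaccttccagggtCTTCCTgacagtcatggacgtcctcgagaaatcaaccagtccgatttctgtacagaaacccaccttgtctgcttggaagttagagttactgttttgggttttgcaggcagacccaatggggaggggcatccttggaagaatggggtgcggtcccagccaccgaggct

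*Ang* had reads of 1 and 0 (WT) against 1 and 0 (Rxra-KO). Both groups were at the floor, so no fold is given, and a difference in *Ang* was not detectable at this depth. *Ang* and *Rnase4* share 161 words of 31 bases, 13.7% of the words of *Ang* and 10.0% of those of *Rnase4*. The reads of the pair were listed almost wholly under *Rnase4*, and the log2 fold change of their summed reads was 5.13. Which of the 2 starts of *Rnase4* the reads came from cannot be told from gene-level values.

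No WT library held a *Mucl1* read (0 in each), while the Rxra-KO libraries held 215 and 130, which is at least 58.1-fold higher by their mean against the floor of 3 reads per library. The bound was 83.0-fold from replicate 1 alone and 33.1-fold from replicate 2 alone. The normalised signal in Rxra-KO was 324 and 130, 2.51-fold more in replicate 1 (exact 95% counting interval 2.01 to 3.14). *Mucl1* and *Rnase4* were thus higher in the same Rxra-KO library, with 3.57 and 3.79 *Rnase4* reads for each *Mucl1* read. *Mucl1* passed the filter on low values only through the Rxra-KO libraries, so that it had to differ. *Mucl1* is known from secretory epithelia. The 6 epithelial markers in the table, among them *Epcam*, *Krt8*, *Krt18* and *Cdh1*, had at most 10 reads each, with a summed signal of 12.1 and 21.7 (WT) against 22.6 and 24.8 (Rxra-KO), and their part in the *Mucl1* signal was not tested.

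The 2 WAP domain members lay on opposite sides. *Slpi* had reads of 147 and 253 (WT) against 20 and 27 (Rxra-KO), with normalised signals of 223 and 275 against 30.9 and 27.3. Both Rxra-KO libraries were below both WT libraries, and the replicates of each group were near each other. Mean signals were 249 ± 36.5 (WT) and 29.1 ± 2.51 (Rxra-KO; SD, n = 2), 8.57-fold lower, with a log2 fold change of -3.05 (standard error 0.30). *Slpi* went from place 623 in the order of mean signals in WT to place 5357 in Rxra-KO.

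*Wfdc17* had reads of 98 and 139 (WT) against 227 and 507 (Rxra-KO), with normalised signals of 149 and 151 against 343 and 504. Both Rxra-KO libraries were above WT, and replicate 2 was 1.47-fold higher than replicate 1 (exact 95% counting interval 1.26 to 1.73), the reverse of the order for *Rnase4* and *Mucl1*. Mean signals were 150 ± 1.55 (WT) and 423 ± 114 (Rxra-KO; SD, n = 2), 2.82-fold higher, with a log2 fold change of 1.46 (standard error 0.24). Its relatives *Wfdc18* and *Wfdc21* share no 31-base word with it.

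*Lcn2* had reads of 2 and 2 (WT) against 1 and 3 (Rxra-KO) and was at the floor in both groups, so no fold is given and a difference was not detectable. The 10 other neutrophil granule genes in the table had at most 18 reads each, with a summed signal of 25.7 and 42.3 (WT) against 36.1 and 48.7 (Rxra-KO), and none was called (0 with an unadjusted p under 0.05). The one highest by its mean, the collagenase gene *Mmp8*, had reads of 4 and 2 (WT) against 4 and 18 (Rxra-KO), with an adjusted *p* of 0.640 by limma. *Elane*, *Ctsg*, *S100a8* and *S100a9* were not analysed here.

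**Figure D2:**
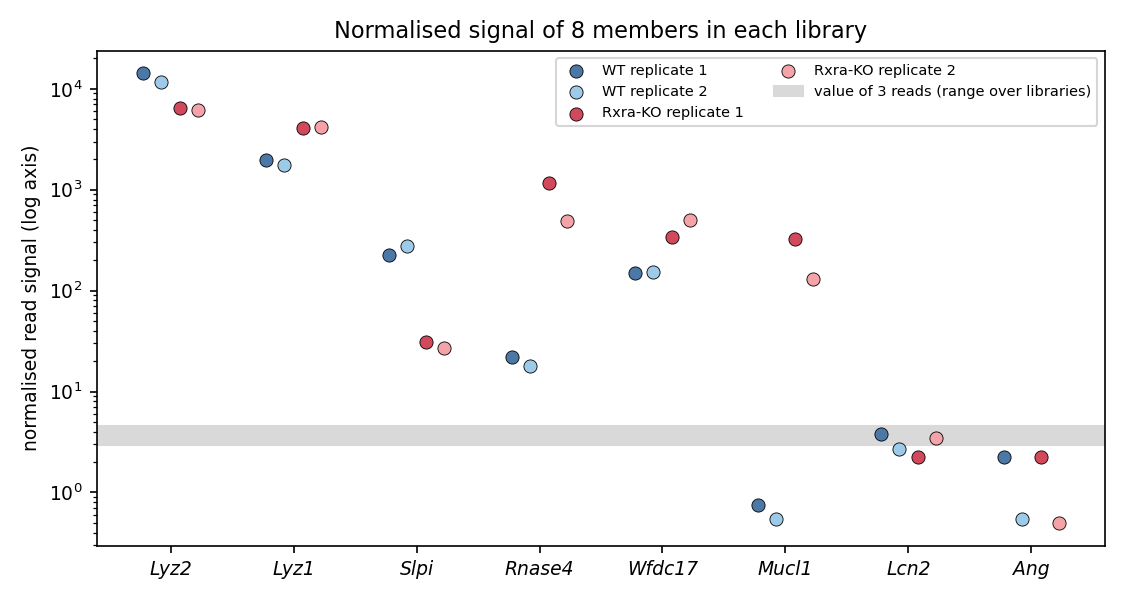
Each point is the normalised read signal of a member in 1 library, on a log axis, with a grey band at the value of 3 reads. *Lyz2* and *Slpi* were lower and *Lyz1*, *Rnase4*, *Wfdc17* and *Mucl1* higher in both libraries labelled Rxra-KO, while *Lcn2* and *Ang* had at most 3 reads in every library.

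Per kilobase of the longest coding transcript, the order of mean signals in WT was *Lyz2* at 9823 ± 1436, *Lyz1* at 1471 ± 116, *Slpi* at 284 ± 41.7, *Wfdc17* at 282 ± 2.91 and *Rnase4* at 13.1 ± 1.89 (SD, n = 2). *Slpi* and *Wfdc17* did not differ beyond their spread. In Rxra-KO the order was *Lyz2* at 4793 ± 84.1, *Lyz1* at 3284 ± 47.9, *Wfdc17* at 794 ± 214, *Rnase4* at 543 ± 311, *Mucl1* at 300 ± 182 and *Slpi* at 33.2 ± 2.87. *Wfdc17* and *Rnase4* were within their spread of each other. The spread between libraries does not measure the order of *Rnase4* and *Mucl1*, which varied together. There were 3.57 and 3.79 *Rnase4* reads for each *Mucl1* read, for transcripts of 1518 and 758 bases. *Rnase4* was thus higher per kilobase than *Mucl1* in each Rxra-KO library. All 8 members together took 1.51% ± 0.241 of the reads (WT) and 1.21% ± 0.135 (Rxra-KO; SD, n = 2), most of it lysozyme.

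Over all genes, limma called 421 of 18364, or 2.29%, where the adjusted p was under 0.05 and the log2 fold change at least 0.6 in size. Those higher in Rxra-KO made up 1.32% of all genes and those lower 0.969%. By the same rule 6 of the 8 members in the table were called, 4 higher and 2 lower. For the same 6 the groups did not overlap, as for 38.1% of all genes. As the members were chosen with this contrast known, the counts describe the choice and nothing is read from them. Leaving out WT replicate 2 ended the calls of both lysozymes, at log2 fold changes of 1.08 for *Lyz1* and -1.18 for *Lyz2*, and leaving out WT replicate 1 ended that of *Lyz2*, at -0.88. Without Rxra-KO replicate 1 or 2, all 6 stayed called, and *Rnase4* had log2 fold changes of 4.56 and 5.80.

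**Figure D3:**
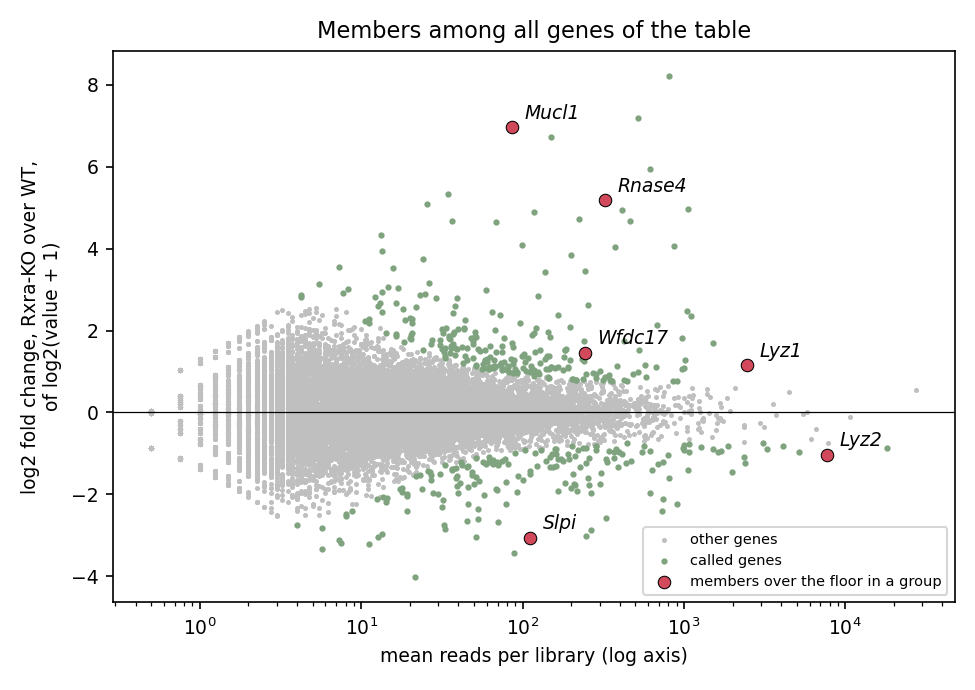
Each point is a gene, with its mean reads per library on a log axis and its log2 fold change of log2(value + 1), Rxra-KO over WT. The 6 members over the floor in a group are labelled, from -3.05 for *Slpi* to 6.97 for *Mucl1*, and the second value depends on the pseudocount because WT had 0 reads.

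The families and partners of the members were read from fixed lists of 98 genes, of which 71 were in the table and 24 were at the floor in both groups. Of the 71, 3 were called (4.23%, against 2.29% of all genes), 1 higher and 2 lower, and 5 had an unadjusted p under 0.05. Their median log2 fold change was -0.11, beside 0.02 over all genes. *Lyz1* and *Lyz2* were the only lysozymes with more than 6 reads in any library. The other 6 lysozyme family genes held no call, and *Lyzl4*, the highest by its mean, had reads of 6 and 0 (WT) against 1 and 2 (Rxra-KO).

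Of the 10 other ribonuclease A family genes and partners none was called. *Rnh1*, the cytosolic inhibitor of these ribonucleases, was the most abundant of them at 73.2 ± 6.13 (WT) and 69.2 ± 5.31 (Rxra-KO; SD, n = 2; adjusted *p* = 0.981 by limma). The log2 fold change of *Rnh1* was -0.08 ± 0.31 (SE). Of 15 other WAP domain genes none was called, and *Wfdc8*, the highest by its mean, had reads of 17 and 15 (WT) against 11 and 11 (Rxra-KO) (limma adjusted *p* = 0.837). Both groups were at the floor for 4 of the 10 ribonuclease genes and 6 of the 15 WAP domain genes. Of 7 lipocalins and lipocalin 2 receptors none was called. *Lrp2*, an endocytic receptor that takes up lipocalin 2, had reads of 13 and 18 (WT) against 10 and 16 (Rxra-KO) (limma adjusted *p* = 0.941).

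Of the 5 genes listed as targets of SLPI or as other inhibitors, *Serpinb1a*, an inhibitor of neutrophil elastase and cathepsin G, was called. It had reads of 156 and 265 (WT) against 106 and 122 (Rxra-KO) and fell from 262 ± 36.1 to 141 ± 27.4 (SD, n = 2), with a log2 fold change of -0.90 ± 0.25 (SE; adjusted *p* = 0.0223 by limma). The mast cell proteases *Cma1*, *Tpsb2* and *Tpsab1* had at most 7 reads each. *Serpinb1a* was not called by DESeq2 (adjusted p 0.0579), nor without WT replicate 1 (-1.04), WT replicate 2 (-0.76) or Rxra-KO replicate 2 (-0.70). The groups did not overlap for this gene.

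Among 18 further antimicrobial effectors of macrophages, 1 was called higher and 1 lower. *Retnla*, a small secreted protein of alternatively activated macrophages with bactericidal activity, had reads of 96 and 29 (WT) against 1055 and 3033 (Rxra-KO). It rose from 89.1 ± 80.7 to 2301 ± 1007 (SD, n = 2), which is 4.97 ± 0.25 (SE) on the log2 scale. The adjusted *p* was 1.36e-47 by limma with a mean-variance trend, 3.00e-04 by DESeq2 and 0.356 by limma without that trend. *Retnla* was highest in the Rxra-KO library in which *Rnase4* was lower. The study counts *Retnla* among genes usually confined to small peritoneal macrophages. Leaving out WT replicate 1 gave *Retnla* a log2 fold change of 6.05 and leaving out WT replicate 2 one of 3.90, and it stayed called whichever library was left out. *Mpeg1*, which encodes the pore-forming protein perforin-2, had reads of 57 and 119 (WT) against 42 and 33 (Rxra-KO). Its log2 fold change was -1.18 ± 0.32 (SE; adjusted *p* = 0.0140 by limma), and it was not called by DESeq2 (adjusted p 0.149) or without WT replicate 2 (-0.90) or Rxra-KO replicate 2 (-0.72). *Cybb*, the catalytic subunit of the phagocyte NADPH oxidase, averaged 867 ± 92.4 in the WT libraries against 532 ± 0.280 (SD, n = 2), and limma did not call it (adjusted *p* = 0.0619). *Fcna*, ficolin A, averaged 1405 ± 438 against 1948 ± 803 (SD, n = 2), and limma did not call it either (adjusted *p* = 0.476), except without Rxra-KO replicate 1, at a log2 fold change of 0.88, against 0.01 without Rxra-KO replicate 2.

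**Figure D4:**
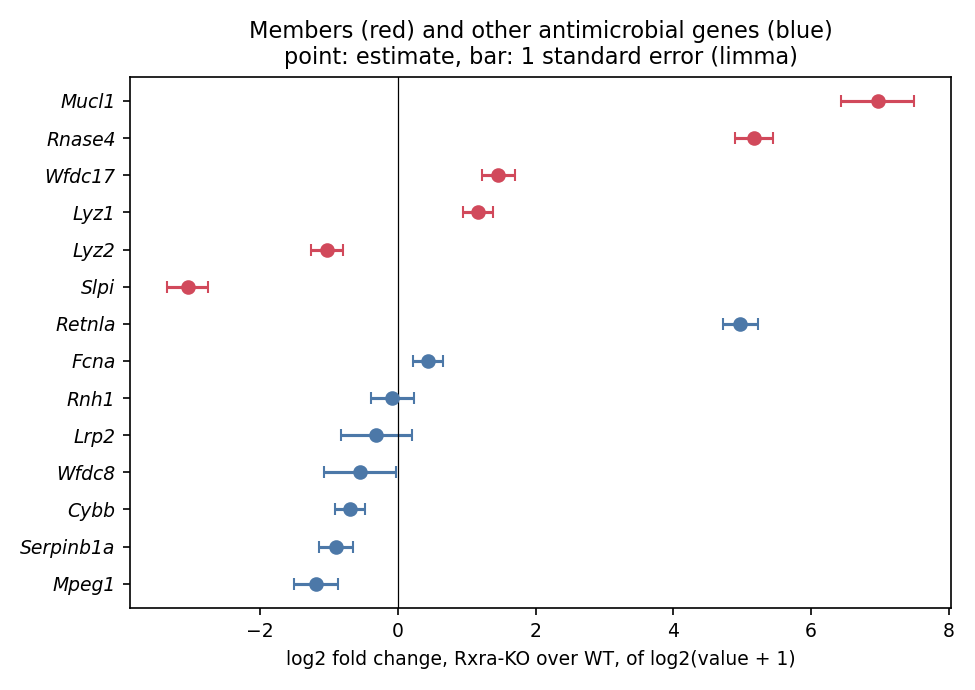
Points give the log2 fold change of log2(value + 1), Rxra-KO over WT, and bars 1 standard error from limma, for 6 members in red and 8 other antimicrobial genes in blue. The blue genes run from -1.18 for *Mpeg1* to 4.97 for *Retnla*, and *Serpinb1a* at -0.90 was the other one called.

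Markers of other cells that the sort could hold were read from fixed lists. The study describes the sorted LPMs as almost pure. It also counts *Ccr2* and *Retnla* among genes of small peritoneal macrophages, the other macrophage subset of the cavity, that were higher in RXR-deficient LPMs. At both genes it reports more accessible chromatin in LPMs of mice lacking *Rxra* and *Rxrb* in LysM cells. The neutrophil list had 7 of 11 genes in the table, none called, with a summed signal of 239 and 261 (WT) against 193 and 256 (Rxra-KO), most of it from *Csf3r* and *Cxcr2*. *Ngp*, *Ltf* and *Mpo*, which define granules, had at most 7 reads each. Of 8 monocyte and dendritic cell markers, *Ccr2*, with reads of 50 and 23 (WT) against 249 and 659 (Rxra-KO), and *Cd209a* were called higher. The other 6 were not called, with log2 fold changes from -0.97 for *Itgax* to 1.18 for *Flt3*. The summed signal was 132 and 73.8 (WT) against 470 and 771 (Rxra-KO). In Rxra-KO most of it came from *Ccr2*, at 376 and 655. This sum, led by *Ccr2*, moved with the same contrast as *Lyz1*, *Rnase4*, *Wfdc17* and *Mucl1*. *Ly6c2* had reads of 5 and 0 (WT) against 1 and 0 (Rxra-KO), and *Plac8* had at most 2 reads in any library. The part of such cells in the values of these members was not tested. The lists for eosinophils (3 genes), B cells (5), T cells (5), mast cells (4) and mesothelium (5) held no call, with summed signals from 13.6 to 109.

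**Figure D5:**
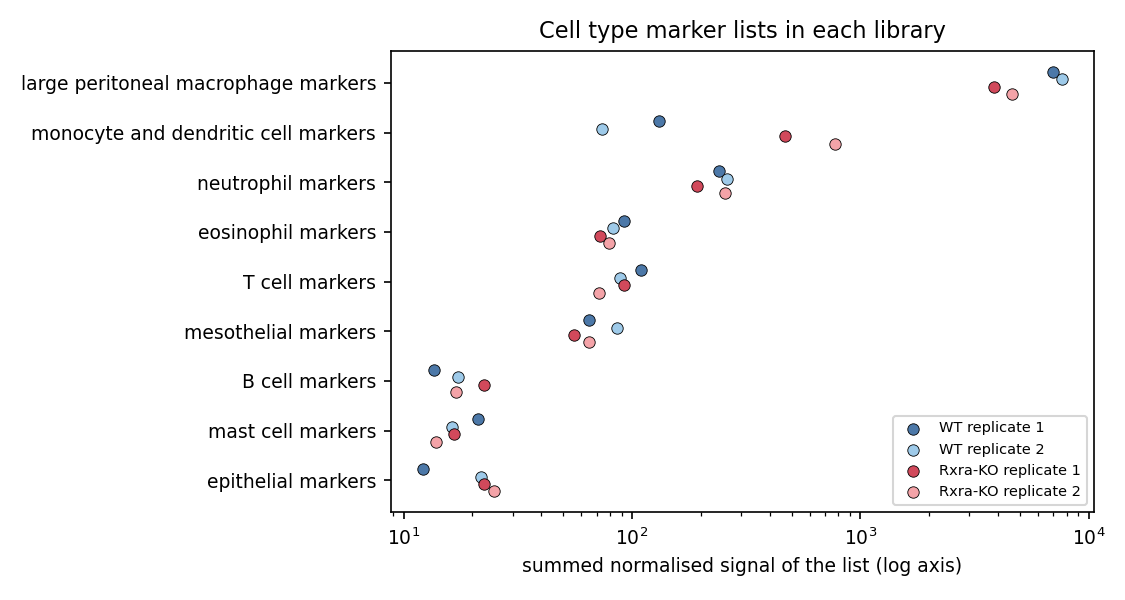
Each point is the summed normalised signal of a marker list in 1 library, on a log axis. The monocyte and dendritic cell list was at 73.8 to 132 in WT and 470 to 771 in Rxra-KO, there mostly from *Ccr2*. The LPM list was at 6986 to 7658 in WT and 3860 to 4631 in Rxra-KO.

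Genes with a mean of at least 100 reads were compared with 4 members by the root mean square distance of their centred log2 values over the 4 libraries, among 1403 genes. Closest to *Lyz1* were *Oxct1* (0.0379), *Gltp* (0.0446) and *Usp24* (0.0787), and closest to *Lyz2* were *Trf* (0.104), *Stxbp2* (0.124) and *Adipor2* (0.153). Closest to *Slpi* were *Ptgis* (0.191), *Mki67* (0.415) and *Gbp2b* (0.417). Closest to *Rnase4* were *Prune2* (0.170), *Cd163* (0.261) and *Cd209g* (0.806). All 4 libraries enter this distance, so both the difference between the groups and the order of the replicates are part of the choice.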

How the data were processed

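SMART-Seq v4 cDNA libraries, which carry no molecular identifiers, were sequenced on the NextSeq-500 system. According to labels and methods, the authors used Kallisto 0.43.0, tximport, and limma after TMM scaling, with a human reference, GRCh38, named for these mouse libraries, so the reference used is not settled. The deposited values are a normalised read signal, (reads + 0.5) divided by a scaled library size, and 100% of them gave a whole number of reads within 0.05 read. The 4 table columns, 2 per group, were assigned by their names in the labels. The study left out sequencing samples that did not cluster with their condition, a step that can narrow the spread between replicates.

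Signals were fitted as log2(value + 1) with limma 3.58.1 (R 4.3.3) with a mean-variance trend, on all 4 libraries without covariates, as a two-sided test, p-values being adjusted by Benjamini-Hochberg across 18364 genes. Fold changes on this scale understate low genes. A value of at least 1 in 2 libraries was required, which removed 0 genes. A single gene cannot go below an exact permutation p of 0.333, so adjusted p-values rest on the spread shared across genes (227 prior against 2 residual degrees of freedom). The same script was tested on simulated data. Alternatives were other pseudocounts, filters, scalings and thresholds, voom, edgeR 4.0.16, DESeq2 1.42.0, a replicate block, summed near copies and leaving out each library.

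The members and lists were chosen with earlier results of these data known. Named were all members, called genes of the 7 family lists (or, where none was called, the gene with the highest mean), and the 3 genes nearest to *Lyz1*, *Lyz2*, *Slpi* and *Rnase4*. Other genes with values, such as *Cybb* and *Fcna*, were chosen after their values were seen. *Wfdc21*, *Acod1* and *Adgre1* were matched by older symbols. Promoters come from RefSeq and transcripts from GENCODE M21, both GRCm38. Intervals and floors cover counting error only.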

Additional observations from a re-analysis of the deposited data

How the results depend on the processing

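The directions of the members follow from how they were chosen, and filters, the mean-variance trend and the block cannot change a fold, so no count of kept directions is given. The log2 fold change of *Mucl1*, with 0 reads in WT, ranged from 5.22 at a pseudocount of 5 to 10.5 with edgeR. Summed with *Lyz2*, *Lyz1* gave -0.49, since the sum follows *Lyz2*. Without a mean-variance trend limma called 0 of all genes (1579 at an unadjusted p under 0.05), 0 members and 0 of the other antimicrobial genes, where edgeR called 446, 6 and 3. DESeq2 called 246 genes, of which 239 were among the 421. With 1 library left out, the calls over all genes ranged from 236 (without WT replicate 2) to 377, over the members from 4 to 6, and over the other antimicrobial genes from 1 to 4. Without Rxra-KO replicate 1 they numbered 244 over all genes. At an adjusted p under 0.01 only *Retnla* of the other antimicrobial genes remained called, 1 gene. The causes were not tested. The median over all genes shifted by -0.021 at most under another scaling. *Cybb* was also called under 5 alternatives, namely library totals, DESeq2 size factors, voom, DESeq2 and the replicate block.

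Replicate numbers are shared between the groups, but the labels name nothing that pairs them. The differences between replicates 1 and 2 correlated across 8850 genes at r = 0.06 between the groups. This does not show whether samples of the same number shared a litter, sort or batch. With the replicate block, 540 genes, 6 members and 4 other antimicrobial genes were called, against 421, 6 and 3.

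Depth limited the low genes: *Ang*, *Lcn2* and 24 of the 71 other genes were at the floor in both groups.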
